A study of Mus musculus with 2 samples.

Results

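Open chromatin was described at the genes of 6 inhibitory receptors of T cells: Pdcd1, which encodes PD-1, Havcr2, which encodes TIM-3, Lag3, Tigit, Cd160 and Btla. The genes were taken by name and not by their measured values. Every deposited peak with its summit in the body of a member gene or within 30 kb on either side was included. These were 69 of the 78016 peaks of replicate 1 on the standard chromosomes and 65 of the 74653 peaks of replicate 2, and they merged into 70 regions out of 84666. On mm10, the build of the peak lists, Pdcd1 spans chr1:94038305-94052553, Lag3 chr6:124904361-124911705, Tigit chr16:43648867-43664146 and Cd160 chr3:96798763-96829351, all on the minus strand. Havcr2 spans chr11:46454935-46481255 and Btla chr16:45224315-45257670, both on the plus strand. The data were 2 ATAC-seq libraries, numbered as biological replicates 1 and 2, of primary T cells of C57BL/6NJ mice. Both belong to 1 group with no treatment or genotype contrast, and both carry the same donor record, so separate animals cannot be assumed. The sex was not collected and the age is unknown. A CD4+ differentiation protocol is linked, and the peak names contain Th0, 72hrs and ASTARR.insert, terms that no label defines. The labels name the assay ATAC-seq, but whether the fragments came straight from chromatin or from the inserts of a reporter library is not stated, and the second case would change what a peak and its signal measure. No source used here gives read numbers, and sequencing depth is therefore unknown. With 2 libraries of 1 group no test between conditions was possible, and all values below are descriptions.

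Inhibitory receptors restrain T cells that have met antigen. Most of them bind ligands on neighbouring cells and recruit phosphatases or other brakes to the cell membrane through motifs in their tails. They are induced on activated T cells for a time and stay on exhausted T cells in chronic infection and in tumours. PD-1 binds PD-L1 and PD-L2, TIM-3 binds galectin-9 among other ligands, LAG-3 binds MHC class II and competes with CD4, and TIGIT competes with the activating receptor CD226 for the poliovirus receptor. BTLA and CD160 share the ligand HVEM. In ATAC-seq a transposase cuts DNA that is free of tightly packed nucleosomes, so peaks mark promoters and candidate regulatory elements. Each peak carries a signal, which no label defines and which is read here from its values and file format as the authors' fold enrichment over local background, and a −log10 q, which is the strength of evidence for the peak within its library.

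The region at or nearest to the start of each gene is shown first, because the members differed in where its summit lay. The printed stretches are the 100 bp around the summit, read 5′ to 3′ in the direction of the gene, with annotated untranslated sequence left out, which shortens the Lag3 stretch to 61 bp. Capitals mark matches to the consensus sequences searched.
Pdcd1, chr1:94053708-94053807, minus strand: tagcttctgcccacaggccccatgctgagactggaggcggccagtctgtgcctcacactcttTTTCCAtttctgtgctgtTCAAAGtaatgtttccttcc
Havcr2, chr11:46454814-46454913, plus strand: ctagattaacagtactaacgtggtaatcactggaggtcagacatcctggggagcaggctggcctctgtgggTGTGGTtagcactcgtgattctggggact
Lag3, chr6:124911706-124911766, minus strand: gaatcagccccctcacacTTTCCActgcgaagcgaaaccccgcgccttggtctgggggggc
Tigit, chr16:43665005-43665104, minus strand: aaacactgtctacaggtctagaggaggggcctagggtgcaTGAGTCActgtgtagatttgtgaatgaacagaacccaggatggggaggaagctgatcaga
Cd160, chr3:96812869-96812968, minus strand: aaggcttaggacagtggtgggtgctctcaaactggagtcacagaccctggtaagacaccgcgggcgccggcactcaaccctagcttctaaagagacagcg
Btla, chr16:45223702-45223801, plus strand: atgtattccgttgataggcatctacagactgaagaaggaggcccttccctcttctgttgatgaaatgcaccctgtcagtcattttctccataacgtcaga
The capitals are an NFAT and a TCF/LEF match at Pdcd1, a RUNX match at Havcr2, an NFAT match at Lag3 and an AP-1 match at Tigit. The Lag3 window also held a GC box, which lies wholly or partly in the untranslated sequence left out. The stretches of Cd160 and Btla held no match. NFAT and AP-1 proteins act after T-cell receptor signalling, and RUNX and TCF/LEF proteins act in T-cell development and differentiation. A match is a stretch of letters and does not show that a protein is bound. Of the 8 promoter regions in the 6 loci, neighbours included, 2 held an NFAT match (25.0%, exact 95% interval 3.19 to 65.1), against 4.01% of all promoter regions in both libraries. These 2 were the promoters of Lag3 and of its neighbour Mlf2. The Pdcd1 region is not among the 8, because its summit lies over 1000 bp from the start. AP-1 and RUNX were in 1 each, against 2.85% and 4.88%, and the GC box was in 2, against 36.5%. The GC boxes were at the promoters of Lag3 and of its neighbour Ptms.

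Of the 6 members, 4 had a promoter region in both libraries, defined as a summit within 1000 bp of a start of a protein-coding transcript, against 62.8% of 21853 protein-coding genes. Havcr2, Lag3, Tigit and Btla had one. Pdcd1 and Cd160 did not. When a peak only had to overlap the 1000 bp on either side of a start, an alternative added after the data were seen, 6 of 6 members had one, against 65.0% of genes. The count of members thus depends on the position of summits, and nothing is read from either share over 6 genes.

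In signal, Havcr2 had the strongest promoter region of the family. Its region at 46454454 to 46455229 on chromosome 11 had its summit 71 bp upstream of the gene's start in replicate 1 and 110 bp in replicate 2, and a signal of 13.4 in replicate 1 and 11.9 in replicate 2 (12.7 ± 1.08, SD, n = 2). Its −log10 q was 128 and 75.5. Among all promoter peaks of each library these signals stood at percentiles 72.9 and 64.9.

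The other promoters were weaker in signal, though that of Btla had a higher −log10 q than that of Havcr2 in both libraries. The Lag3 region at 124911509 to 124912201 on chromosome 6 peaked 12 bp and 24 bp upstream of the start, with a signal of 4.33 and 4.23 (4.28 ± 0.0667, SD, n = 2) and a −log10 q of 53.3 and 39.6. The Tigit region at 43663869 to 43665141 on chromosome 16 had a signal of 5.11 and 4.93 (5.02 ± 0.134, SD, n = 2) and a −log10 q of 81.2 and 56.7. The Btla region at 45222609 to 45224995 on the same chromosome had 5.61 and 5.43 (5.52 ± 0.131, SD, n = 2) and a −log10 q of 134 and 91.1. These 3 promoters lay between percentiles 10.7 and 18.4 of promoter signal in the 2 libraries. The median of the 4 promoters was 5.27, against 10.5 in all 14013 promoter regions found in both libraries. In a bulk library a region open weakly in all cells and one open strongly in few cells cannot be told apart.

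Several summits lay well upstream of the start that their region covered. The Tigit summit lay 909 bp upstream in replicate 1 and 880 bp in replicate 2. The Btla summit lay 563 bp upstream in replicate 1 but 321 bp in replicate 2, so its distance differed between the libraries. By the stronger of the matched summits, 9.29% of all promoter regions had a summit over 500 bp away from the nearest start. At Pdcd1 a region 2111 bp wide, at 94052100 to 94054210 on chromosome 1, covered the start, and its summit lay 1205 bp upstream in both libraries, just outside the promoter limit. Its signal was 5.30 and 5.21 (5.25 ± 0.0642, SD, n = 2) and its −log10 q 125 and 89.4. A stretch of the Pdcd1 promoter about this far upstream is known as a conserved element through which NFATc1 acts on the gene in activated T cells. The Pdcd1 stretch printed above held NFAT letters, on the strand opposite to the gene.

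Cd160 was the exception, since no region covered the start of any of its annotated protein-coding transcripts. Its outer start at 96829351 on chromosome 3, which lies next to the start of Pdzk1, had no region from 17.6 kb upstream to 15.2 kb downstream, measured to the nearest edges. The nearest region to its inner start, at 96812580 to 96814114, had its edge 407 bp and its summit 1602 bp downstream of that start. With a signal of 12.6 and 12.5 (12.5 ± 0.0861, SD, n = 2) and a −log10 q of 184 and 134, it was the strongest region of the locus in mean signal.

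**Figure D1:**
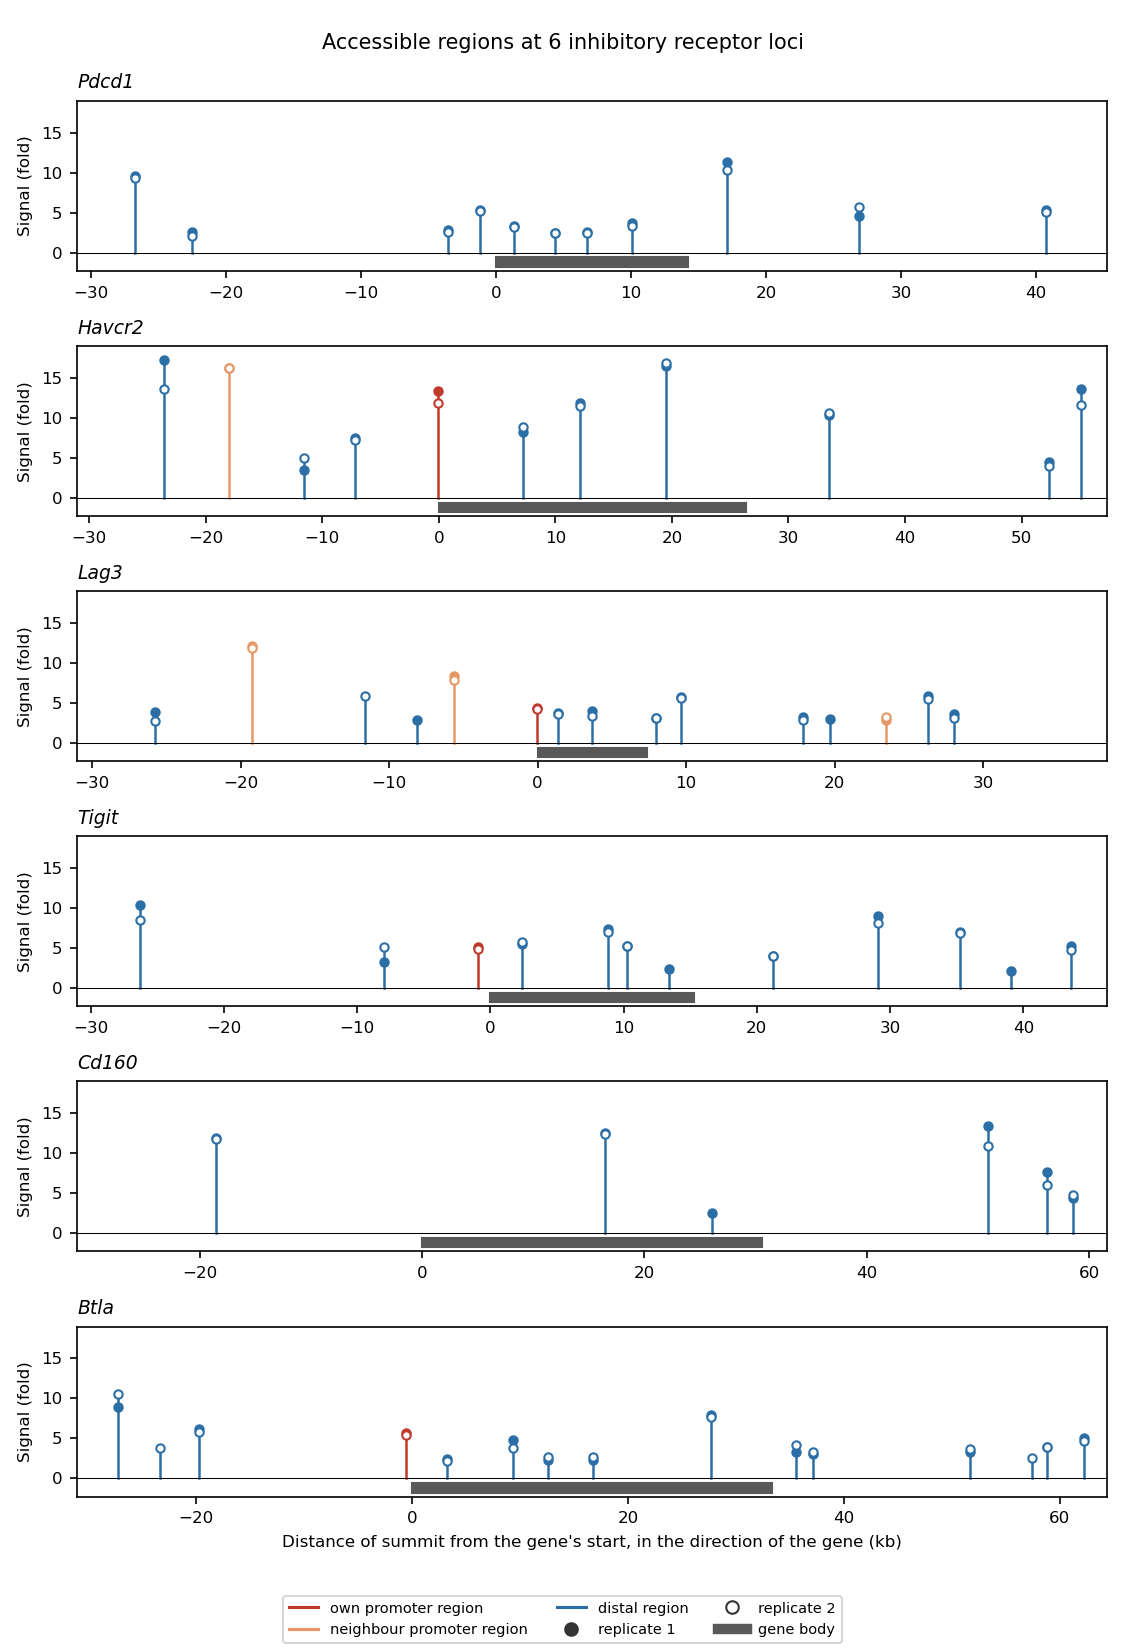
Signal of each region (vertical axis, fold over local background, the same scale in all panels) against the distance of its summit from the gene's start in kb, in the direction of the gene, for the 6 loci. Filled points are replicate 1 and open points replicate 2, colours give the class of region, and the grey bar is the gene body. Pdcd1 and Cd160 have no own promoter region by the summit rule, and regions in the Havcr2 locus reach 17.2, while no distal region of Lag3 exceeds 5.93.

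Outside the promoter limit of the summit rule, the family was rich in accessible regions. The 6 loci held 62 distal regions, of which 54 were found in both libraries, against 75.6% of all distal regions. By the summit rule the 54 include the region that covers the Pdcd1 start and the one nearest to the inner Cd160 start. With a promoter limit of 2000 bp the count was 50. Of the 54, 18 lay in the gene bodies, 13 upstream and 23 downstream. For 41 of them the nearest protein-coding start was that of the member itself, and for the other 13 it was that of a neighbour such as Neu4, Med7 or Cd4. Their median signal was 5.09, ranging from 2.26 to 16.7, against 6.56 over all 52834 distal regions found in both libraries.

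Btla had 12 distal regions, Pdcd1 11, Havcr2 9, Tigit 9, Lag3 8 and Cd160 5. Their median was 9, against 3 over all protein-coding genes counted with the same flanks. Set against genes of similar length, by deciles of gene length, 99.4% had fewer than Pdcd1, 99.2% fewer than Btla, 98.1% fewer than Lag3, 97.9% fewer than Tigit and 95.2% fewer than Havcr2. Cd160 stood lower, at 68.7%. Not all of these regions had the member's own start as the nearest protein-coding start. It was nearest for 4 of 8 at Lag3, 5 of 9 at Havcr2, 3 of 5 at Cd160 and 8 of 11 at Pdcd1. At Tigit and Btla it was nearest for all. Per 100 kb, Lag3 held 17.8 regions of any class in both libraries, Pdcd1 14.8, Btla 13.9, Tigit 13.3, Havcr2 12.7 and Cd160 5.52. Those of Lag3 include its own promoter and the promoters of 3 neighbours. No such density over all genes is given, so nothing is read from this order. With the 50000 strongest peaks of each library the median of the members fell to 4, against 2 over all genes, and Pdcd1 held 4, Btla 3 and Lag3 2.

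**Figure D2:**
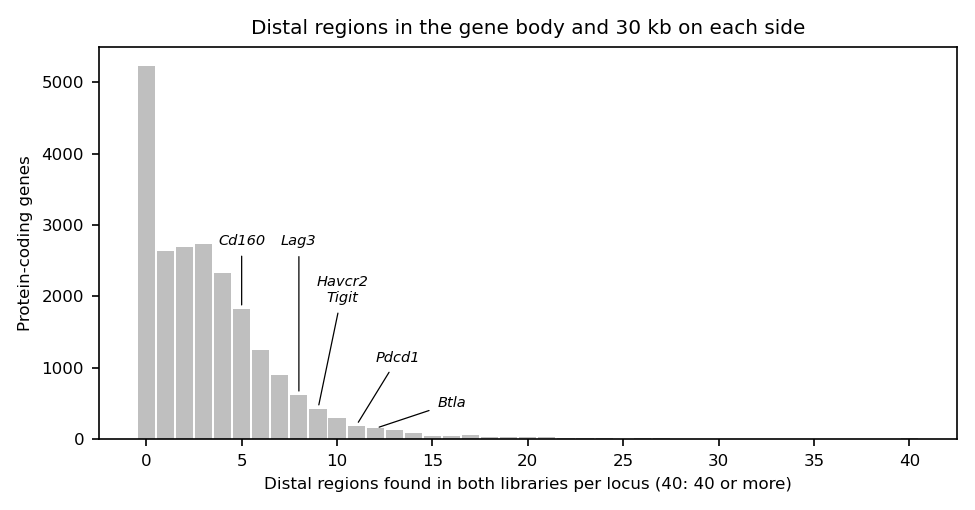
Number of protein-coding genes (vertical axis) by the number of distal regions found in both libraries within the gene and its 30 kb flanks (horizontal axis). Lines mark the members: Cd160 with 5 lies near the bulk of genes, where the median is 3, and the others lie between 8 and 12.

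At Pdcd1 the region with the strongest evidence lay beyond the 3′ end of the gene. The region at 94034808 to 94036432 on chromosome 1, 17.1 kb downstream of the start, had a signal of 11.4 in replicate 1 and 10.3 in replicate 2 (10.9 ± 0.744, SD, n = 2). Its −log10 q was 635 and 413, which ranked 11 among 63427 distal peaks of replicate 1 and 16 among 60210 of replicate 2. The start of Neu4, at 14919 bp, was nearer to it than that of Pdcd1. In signal it was less extreme, at percentiles 85.9 and 82.9 of distal peaks. Its central stretch was chosen for printing after these values were seen, and the capitals mark an NFAT match.
Pdcd1 downstream, chr1:94035362-94035461, minus strand: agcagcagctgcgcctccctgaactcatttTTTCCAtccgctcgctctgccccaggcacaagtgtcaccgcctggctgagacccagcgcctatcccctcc
Distal elements on both sides of Pdcd1 that respond to NFATc1 and STAT proteins have been described in mouse T cells. No STAT letters lay in the 100 bp windows of the 11 distal regions of Pdcd1, which says nothing of the factor.

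Second in mean signal at Pdcd1 was a region 26.7 kb upstream, at 94078207 to 94079566, which was also the farthest upstream. It had a signal of 9.61 and 9.41 and a −log10 q of 97.6 and 76.8. The farthest downstream, 40.7 kb from the start in untranslated sequence of Gal3st2c, had 5.30 and 5.09. Between these, Pdcd1 held weaker regions: 4 in its introns with mean signals from 2.47 to 3.53, and one 3.57 kb upstream with 2.84 and 2.59. The weakest, 22.5 kb upstream, had 2.55 and 2.05 with a −log10 q of 5.70 and 2.02. All 11 regions of the locus were found in both libraries.

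By mean signal Havcr2 had the strongest distal region of the family. An intronic region 19.5 kb into the gene, at 46474079 to 46474963 on chromosome 11, had a signal of 16.5 and 16.8 (16.7 ± 0.206, SD, n = 2) and a −log10 q of 285 and 215. Its signals stood at percentiles 98.5 and 99.4 of distal peaks. A region 23.6 kb upstream, at 46430805 to 46431626, had 17.2 and 13.7 with a −log10 q of 164 and 91.7, so the libraries differed there by 1.26-fold, and it held a CTCF match. CTCF is the factor that bounds chromatin loops. The next, 55.1 kb downstream of the start at 46509309 to 46510512, had 13.7 and 11.7.

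The Havcr2 locus also held the promoter of Med7, a subunit of the Mediator complex, with a signal of 16.3 in both libraries. The region 23.6 kb upstream of Havcr2 lay 5574 bp from the Med7 start. Inside Havcr2, the other intronic regions had 8.28 and 8.87 at 7.25 kb and 11.9 and 11.5 at 12.2 kb. All 11 regions of this locus were found in both libraries.

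Lag3 lies next to Cd4, and its locus held the promoters of 3 neighbours. The Cd4 promoter region had a signal of 2.84 and 3.24, that of Ptms, which encodes parathymosin, 8.43 and 7.82, and that of Mlf2 12.1 and 11.9. Of these only the Cd4 promoter was weaker than that of Lag3. By mean signal the strongest distal region found in both libraries, 9.66 kb downstream of the Lag3 start and between Lag3 and Cd4, lay at 124900339 to 124902437 on chromosome 6. Its signal was 5.78 and 5.67 (5.72 ± 0.0780, SD, n = 2) and its −log10 q 153 and 105.

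A region in an intron of Cd4, 26.3 kb from the Lag3 start at 124884917 to 124886947, was nearly as strong, with 5.93 and 5.50. Next was a region in an intron of Lag3, with 4.00 and 3.42. A region 7.98 kb downstream with 3.14 and 3.12 held a CTCF match. The farthest downstream, also in a Cd4 intron, had 3.56 and 3.12, and the farthest upstream, 25.8 kb away, 3.92 and 2.70.

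Tigit and Btla, both on chromosome 16, had their regions of highest mean signal far upstream. That of Tigit lay 26.3 kb upstream at 43689994 to 43690971, with a signal of 10.3 and 8.49 (9.42 ± 1.31, SD, n = 2) and a −log10 q of 54.3 and 32.5. That of Btla lay 27.3 kb upstream at 45196768 to 45197453, with 8.89 and 10.5 (9.71 ± 1.16, SD, n = 2) and a −log10 q of 59.4 and 69.8, and it held a CTCF match. In both cases the spread between the libraries was wider than at the promoters of these genes.

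Next at Tigit was a region 29.1 kb downstream of the start at 43634541 to 43635346, with 8.98 and 8.15, in untranslated sequence of Zbtb20, the neighbouring transcription factor gene. An intronic region 8.80 kb into Tigit, at 43654854 to 43655875, had 7.35 and 7.01 and the highest −log10 q of the locus, 135 and 85.2. The farthest downstream, 43.6 kb from the start and also in Zbtb20, had 5.26 and 4.75.

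At Btla a region 27.6 kb into the gene, at 45251375 to 45252540 in exon sequence annotated as untranslated, had 7.96 and 7.67 with a −log10 q of 127 and 87.4. A region 19.7 kb upstream had 6.12 and 5.84. The farthest downstream, 62.2 kb from the start, had 5.02 and 4.60. The other intronic regions of Btla were weak, with mean signals from 2.26 to 4.29.

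Cd160 had few but strong regions. Beside the one near its inner start, a region 50.9 kb downstream in an intron of Rnf115, at 96778069 to 96778884 on chromosome 3, had a signal of 13.5 and 10.9 (12.2 ± 1.80, SD, n = 2). A region 18.5 kb upstream in an intron of Pdzk1, at 96846963 to 96848772, had 11.9 and 11.8. The farthest downstream, 58.5 kb from the start, had 4.45 and 4.77. The median distal signal of Cd160 was 11.8, above the 10.5 of Havcr2, 5.66 of Tigit, 3.81 of Btla, 3.53 of Pdcd1 and 3.50 of Lag3. The distal regions of Cd160 include the one near its inner start.

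All 4 members with a promoter region had at least one distal region of higher mean signal in their locus, against 45.2% of 13724 genes with a promoter region in both libraries. A locus with more distal regions has more that can exceed its promoter. These 4 held between 8 and 12, against a median of 3 over all protein-coding genes. The genes compared were matched neither for this number nor for promoter signal. At Havcr2 the distal maximum was 16.7 against 12.7 at the promoter, at Btla 9.71 against 5.52, at Tigit 9.42 against 5.02 and at Lag3 5.72 against 4.28. By −log10 q, an order added after the data were seen, this held for 3 of the 4, against 30.2% of genes. Btla was the one for which it did not, with a mean −log10 q of 112 at the promoter and at most 107 elsewhere. The count by signal also depended on the settings. With a promoter limit of 2000 bp 6 members had a promoter region, and 5 of them had a stronger distal region. With distal regions of the gene bodies alone 3 members did.

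**Figure D3:**
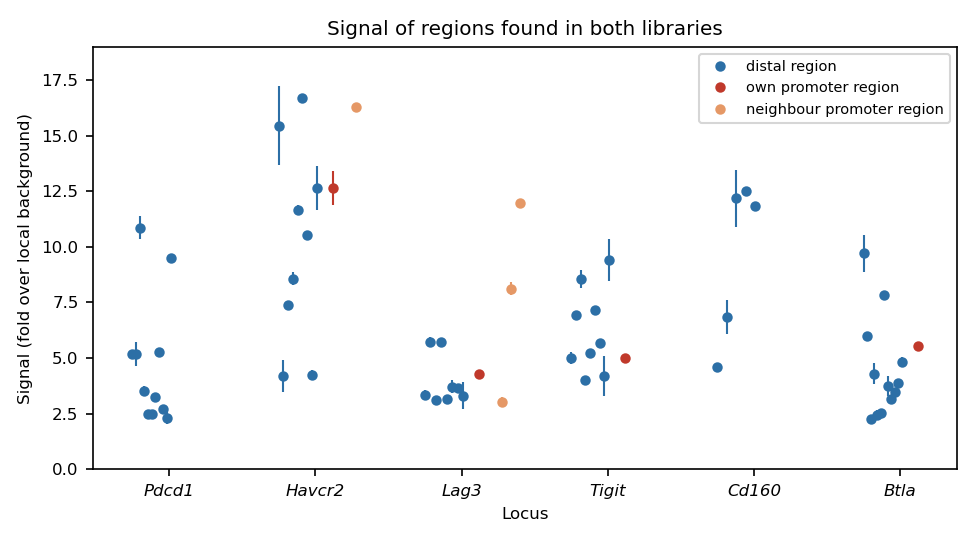
Signal of the regions found in both libraries (vertical axis, fold over local background) for each locus (horizontal axis). Points are the mean of the 2 libraries, vertical lines join the libraries' values and colours give the class of region. Each own promoter region lies below at least 1 distal region of its locus, as at Btla with 5.52 against 9.71.

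Most regions were found in both libraries. Of the 70 regions 62 were (88.6%, exact binomial 95% interval 78.7 to 94.9, for counting error only), against 79.0% of all merged regions. Replicate 1 alone held 5 and replicate 2 alone 3, all of them distal. The strongest was 11.7 kb upstream of Lag3, with a signal of 5.82 and a −log10 q of 25.5 in replicate 2 only. The other single-library regions of Lag3, 19.7 kb downstream and 8.16 kb upstream, had 2.93 and 2.81 in replicate 1.

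The remaining single-library regions were weak in signal. Those of Tigit, in replicate 1, lay 13.4 kb and 39.05 kb downstream with 2.35 and 2.16. The only one of Cd160 had 2.48 with a −log10 q of 1.88 in replicate 1. Those of Btla, in replicate 2, had 3.81 at 23.3 kb upstream and 2.54 at 57.4 kb downstream. A region missing from a list may lie below the peak threshold of that library and is not shown to be closed.

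Where 1 peak of each library matched, at 60 regions, signal in replicate 1 over that in replicate 2 had a median of 1.04, as it had over all 65721 such regions. The SD of the log2 ratio was 0.19 in the 6 loci and 0.23 over all. One region, 7.99 kb upstream of Tigit, differed by more than 1.5-fold, with 3.31 in replicate 1 and 5.09 in replicate 2. The −log10 q was higher in replicate 1 at 53 of the 60, or 88.3% against 86.5% over all, so this shift was shared by the whole library. Summits of the libraries lay within 50 bp of each other at 40 of the 60 regions, or 66.7% against 72.6% over all, and the widest gap was 269 bp.

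**Figure D4:**
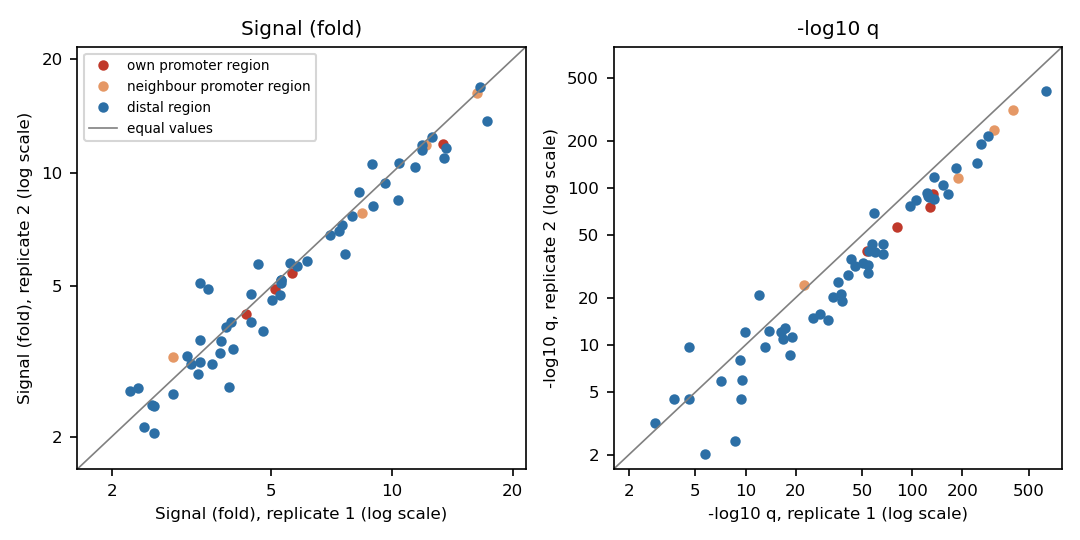
Signal (left) and −log10 q (right) of the 60 matched regions in replicate 1 (horizontal axis) and replicate 2 (vertical axis), on log scales, with colours for the class of region and a line of equal values. Signal lies along the line with a median ratio of 1.04, and −log10 q lies below it at 53 regions.

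Sequence at the summits was searched for 15 consensus sequences on both strands, in the 100 bp around each summit. For AP-1 the letters were TGACTCA. Those of the related CRE element were TGACGTCA. NFAT was searched as TGGAAA and ETS factors as AGGAAGT. RUNX factors were searched as TGTGGT and TCF/LEF factors as CTTTGA. The NR4A letters were AAAGGTCA, those of STAT proteins TTCNNNGAA and those of GATA factors AGATAA. T-box factors were searched as GGTGTGA, FOXO factors as GTAAACA and the GC box as GGGCGG. NF-kB, CTCF and the composite of AP-1 with IRF, which contains AP-1 letters, are given by name. The STAT and NFAT letters can overlap, as they did in the window 9.66 kb downstream of Lag3.

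Of the 54 distal regions in both libraries, 11 held an NFAT match (20.4%, exact 95% interval 10.6 to 33.5), against 11.3% of all distal regions. AP-1 was in 8 (14.8%, 6.62 to 27.1, against 18.8%), RUNX in 8 (14.8%, against 14.1%), and CTCF and TCF/LEF in 4 each (7.41%, against 5.02% and 9.29%). STAT and ETS were in 3 each (5.56%, against 4.87% and 6.74%), and T-box and FOXO in 2 each (3.70%, against 1.99% and 0.969%). GATA and the GC box were in 1 each (1.85%, against 4.06% and 4.50%). No distal region held a CRE, NR4A, NF-kB or composite match, which by a floor of 3 regions of 54 allows a share of up to 5.56%, and by the exact interval up to 6.60%, against 0.254%, 1.43%, 4.04% and 0.380% of all distal regions. Every background share lay inside the interval of the members. The NFAT count was 16 in 200 bp windows, 12 with the summits of replicate 1 and 8 with those of replicate 2. No share over all distal regions is given for these settings.

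NFAT matches were spread over the loci as 4 of 11 distal regions at Pdcd1, 3 of 9 at Tigit, 2 of 9 at Havcr2, 1 of 8 at Lag3, 1 of 12 at Btla and 0 of 5 at Cd160. Of the 4 TCF/LEF matches 3 were at Pdcd1. The region that covers the Pdcd1 start is counted in both, with an NFAT and a TCF/LEF match. The strongest regions with an AP-1 match outside untranslated sequence are printed for each locus that had one, and Havcr2 had a pair. Capitals mark all matches.
Havcr2 intron, chr11:46474389-46474488, plus strand: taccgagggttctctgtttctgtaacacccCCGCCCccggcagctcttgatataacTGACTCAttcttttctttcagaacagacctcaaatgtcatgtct
Havcr2 downstream, chr11:46510005-46510104, plus strand: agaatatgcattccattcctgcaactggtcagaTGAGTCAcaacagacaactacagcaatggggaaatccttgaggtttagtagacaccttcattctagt
Cd160 downstream, chr3:96773139-96773238, minus strand: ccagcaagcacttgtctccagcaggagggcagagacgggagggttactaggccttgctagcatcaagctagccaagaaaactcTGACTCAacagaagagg
Btla upstream, chr16:45204528-45204627, plus strand: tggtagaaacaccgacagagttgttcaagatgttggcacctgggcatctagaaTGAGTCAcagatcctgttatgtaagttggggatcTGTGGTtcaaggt
Tigit intron, chr16:43653870-43653969, minus strand: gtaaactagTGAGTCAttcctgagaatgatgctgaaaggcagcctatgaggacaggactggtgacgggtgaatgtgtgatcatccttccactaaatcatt
Pdcd1 intron, chr1:94051177-94051276, minus strand: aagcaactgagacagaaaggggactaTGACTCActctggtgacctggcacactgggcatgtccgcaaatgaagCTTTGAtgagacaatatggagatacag
The Havcr2 intron stretch belongs to the distal region of highest mean signal in the family and holds a GC box before its AP-1 match. The other Havcr2 stretch is the one 55.1 kb downstream, with AP-1 alone. That of Cd160 had a signal of 7.62 and 6.08 in an intron of Rnf115, that of Btla had 6.12 and 5.84 and adds a RUNX match, and that of Tigit had 5.30 and 5.20. The Pdcd1 stretch, with an AP-1 and a TCF/LEF match, belongs to a weak intronic region 1326 bp from the start, with 3.31 and 3.16.

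**Figure D5:**
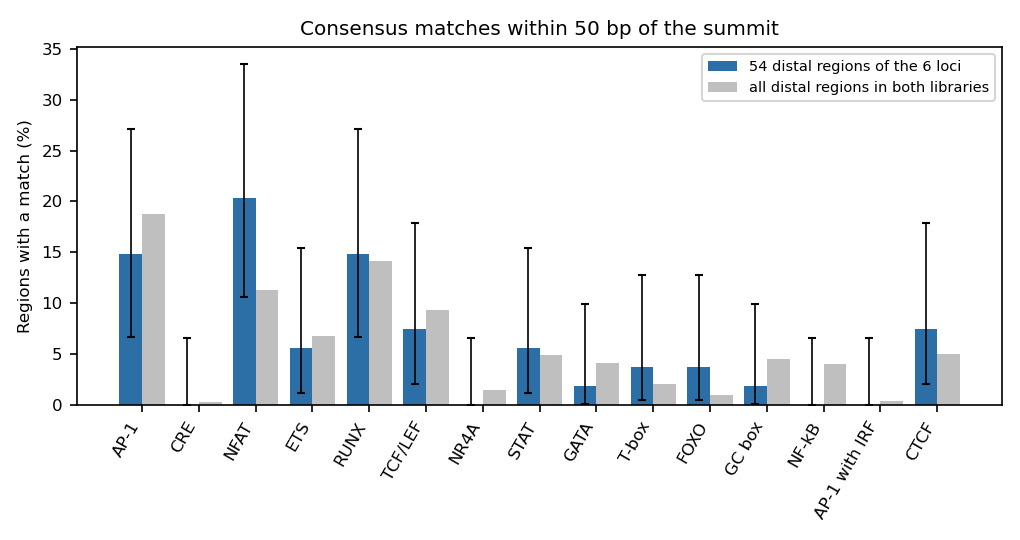
Percent of regions with a consensus match within 50 bp of the summit (vertical axis) for 15 consensus sequences (horizontal axis). Blue bars are the 54 distal regions of the 6 loci with exact 95% binomial intervals, and grey bars are all distal regions in both libraries. NFAT is 20.4% against 11.3%, and each grey bar lies inside the interval beside it.

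In base composition the promoter summits of the family stood below the median of all promoter regions. In the 200 bp around the summit the GC content was 48.0% at Havcr2, 62.5% at Lag3, 49.5% at Tigit and 41.0% at Btla, against a median of 65.0% over all promoter regions. At Tigit and Btla the summits used lay 909 bp and 563 bp upstream of the start, so these windows do not hold the sequence at the start. The regions nearest to the starts of Pdcd1 and Cd160 had 56.0% and 56.5%. Distal regions of the 6 loci had a median of 46.8%, against 48.0% of all distal regions.

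Of 29 other genes of the pathway, 24 had a promoter region in both libraries, against 62.8% of all genes, with a median signal of 7.92. Among ligands 9 of 11 had one. Lgals9, which encodes galectin-9, had a mean signal of 12.0 and Nectin2, a ligand of the TIGIT family, 11.9. Pdcd1lg2, which encodes PD-L2, and Fgl1, a ligand of LAG-3, had none. Among rival and partner molecules 5 of 6 had one, led by Tnfsf14, which encodes the ligand LIGHT, at 10.8 and Cd226 at 8.24. Pvrig had none.

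Of the other inhibitory receptors 4 of 6 had a promoter region in both libraries, against 62.8% of all genes, and nothing is read from this share. They were Ctla4, Vsir, Cd200r1 and Cd244a, with Cd200r1 highest at 7.61 and Vsir next at 6.58. Lair1 had one in replicate 1 only, with a signal of 4.80, and Klrg1 had none. All 6 cytoplasmic partners had one, against the same 62.8% of all genes. They were led by Ptpn11, which encodes the phosphatase SHP-2, at 12.9 and the adaptor gene Grb2 at 11.9. Ptpn6, which encodes SHP-1, had 6.45.

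The label of the cells was checked at marker promoters. All 8 T-cell markers had a promoter region in both libraries, against 62.8% of all protein-coding genes. The same share stands beside the counts of the other lists below. Mean signals of the T-cell markers ran from 2.53 at Cd2 to 10.3 at Lck. Some members are also made by other cells, Btla by B cells, Havcr2 by myeloid cells and Cd160 by natural killer cells. Of the B-cell markers 1 of 4 had a promoter region in both libraries (Pax5, 10.3), Cd79b had one in replicate 2, and Cd79a and Ms4a1 had none. Of the myeloid markers 1 of 5 had one (Mpo, 3.54), Cd14 had one in replicate 1, and Lyz2, Csf1r and Itgam had none. Of the natural killer markers 2 of 4 had one (Klrb1c, 5.29, and Eomes, 6.79), and Ncr1 and Klra8 had none. Of the epithelial and liver markers 1 of 3 had one (Epcam, 10.6), Krt8 had one in replicate 2, and Alb had none. The signals of Pax5 and Epcam were as high as that of Lck, so the height of the signal did not separate the lists. What other cells added to the regions of the members was not tested.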

How the data were processed

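ATAC-seq peak lists of 2 libraries of mouse T cells were used, 1 list per library. Per the deposited notes they are narrowPeak files on mm10. The aligner, peak caller and threshold are not given in the sources used here. The deposited score of the fifth column was not used further. The deposited signal (column 7) is a ratio, read from its values as fold enrichment over local background. The authors' −log10 q (column 9) was taken as deposited, and neither is scaled between libraries. No source shows whether reads were shifted for the transposase.

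After other contigs were left out, peaks were merged across libraries where they overlapped by at least 1 bp, and the strongest summit was kept. Genes and 54361 protein-coding starts came from GENCODE mouse release 21, and sequence from the RefSeq copy of GRCm38.p6, the assembly of mm10. No peak end passed the end of its chromosome there. Named regions were, for each member, the promoter region, the 3 strongest distal regions, the strongest and weakest region of a single library and the outermost distal ones. Named pathway genes were the strongest 1 or 2 of each role and those without a promoter region in both libraries, and others were added after their values were seen. One listed marker is not reported here. The members and lists were chosen with earlier results of these data known. Python 3.11.15, pandas 2.3.3, SciPy 1.17.1 and pysam 0.24.0 were used, and the code was tested on simulated peaks. Intervals are exact Clopper-Pearson 95% intervals. Alternatives were stricter peaks, other overlaps, flanks, starts and windows, and each library alone.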

Additional observations from a re-analysis of the deposited data

How the results depend on the processing

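For the counts of promoters and of distal regions and the share of regions in both libraries, 24 values under other settings stayed within 1.5 times the main count or within the interval of the main share. The count of distal regions in both libraries, 54, was 26 with the 50000 strongest peaks of each library and 18 with gene bodies alone, where fewer peaks or bases enter. It was between 57 and 61 in single libraries. With 20 kb flanks Cd160 held 2 distal regions in place of 5. The count of members with a promoter region, 4, was 2 with a limit of 500 bp, since the Tigit summit in both libraries and the Btla summit in replicate 1 lie farther away, and it was 4 in each single library. The share of regions in both libraries, 88.6%, was 78.7% when at least 50% of both peaks had to overlap. In 200 bp around the summit 10 regions held TCF/LEF letters, 6 STAT, 5 ETS, 5 GATA, 3 the GC box and 2 NF-kB. With the summit of replicate 2, STAT was in 5, GATA in 3 and the GC box in 2, and with that of replicate 1 T-box was in 1. A longer window has more room for matches. No share over all distal regions is given for these windows and summits, so nothing is read from these counts. Among the values of single members, medians and consensus counts, 211 stayed within these limits, 13 were higher and 35 lower. No paired analysis was possible because there is 1 group. Depth is unknown, so weak regions missing from 1 list may lie below its threshold.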

Other observations

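Signal and −log10 q ordered the promoters of the family differently. The Btla promoter, with less than the signal of the Havcr2 promoter (5.61 against 13.4 in replicate 1 and 5.43 against 11.9 in replicate 2), had the higher −log10 q in both libraries (134 against 128, and 91.1 against 75.5). The merged Btla region was 2387 bp wide and that of Havcr2 776 bp. By −log10 q the Btla promoter stood at percentiles 47.2 and 45.7 of promoter peaks, where by signal it stood at 18.4 and 17.5. With 50 kb on each side in place of 30 kb, the Tigit locus held 16 distal regions in both libraries in place of 9.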
